A study of Mus musculus with 8 samples.

Results

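The genes examined were the protein-coding mouse genes whose symbols name a subunit of the proteasome: Psma1 to Psma7, Psmb1 to Psmb7, Psmc1 to Psmc6 and every numbered Psmd gene. The members were picked by symbol, a rule that uses none of the measured values, although the gene set was proposed with earlier results of these data known. The rule found 34 of the 55487 genes listed, 14 in the 20S core and 20 in the 19S cap series. Expression was measured by bulk Smart-seq2 RNA-seq, which copies polyadenylated RNA into full-length cDNA and amplifies it, in 8 libraries of sorted mouse haematopoietic stem cells (HSCs), the cells from which all blood lineages arise. The genotype label reads miR652-KD in 4 libraries and NTC, the non-target control, in the other 4. The comparison these groups make is how the HSC transcriptome responds to knockdown of the microRNA miR-652. How the knockdown was made, the strain and age of the mice, the sort markers and whether replicates came from separate animals are not given in the labels. The tests therefore weigh differences against library-to-library spread only, and that spread may be technical.

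The 26S proteasome degrades proteins that carry ubiquitin chains. Its 20S core is a barrel of stacked rings in which outer alpha rings gate the entry and inner beta rings hold the proteolytic sites. The 19S cap binds the substrate, removes the ubiquitin chain, unfolds the protein with a ring of ATPases and threads it into the core. Subunits are built into the particle in fixed proportions, and the transcription factor NRF1, encoded by Nfe2l1, is known to raise their genes together when proteasome activity falls short. HSCs are known for a low rate of protein synthesis and for sensitivity to misfolded protein.

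Counts assigned to genes totalled 14677644 to 19894821 in miR652-KD libraries and 14017632 to 16763709 in NTC libraries. All 12 HSC and progenitor markers were detected, at a summed level of 3213 to 3516 CPM (counts scaled to the same total of gene counts in every library) in miR652-KD and 3263 to 4021 CPM in NTC. Single markers moved in both directions, 5 above 0 and 7 below. With edgeR 0 of the 12 passed and 5 had an unadjusted p below 0.05, against 0.0418% and 5.99% of all genes tested. Ly6a lay entirely higher in miR652-KD (log2 difference 0.62), against 2.35% of all genes. Cd34 (-0.71) and Kit (-0.34) lay entirely lower, against 2.15%. Markers of other cells also differed between libraries. The 12 erythroid markers summed to 56.3 to 2380.5 CPM in miR652-KD and 2404 to 5846 CPM in NTC, and 1 of the 12 had a log2 difference above 0. The highest miR652-KD sum was that of replicate 4, and the other miR652-KD libraries had at most 213 CPM. The 12 granulocyte and monocyte markers summed to 709 to 5000.0 CPM in miR652-KD and 729 to 14597 CPM in NTC, with 0 of 10 tested above 0. The 14 markers of G2 and M phase summed to 757 to 1635 CPM in miR652-KD and 592 to 953 CPM in NTC, with 13 of 14 above 0. The 12 macrophage and dendritic markers summed to 2034 to 2498 CPM in miR652-KD and 912 to 1323 CPM in NTC. Of 8 tested, 6 were above 0 and 3 passed the edgeR threshold, against 0.0418% of all genes tested. Those 3 were the MHC class II pathway genes Cd74, H2-Aa and H2-Eb1, which averaged 806, 515 and 275 CPM in miR652-KD. Adgre1, Csf1r, Itgax and Siglech averaged at most 3.21 CPM in either group, and Flt3 and C1qb had log2 differences of -0.52 and -0.54. The T cell genes Cd3e and Cd3g and the platelet gene Gp6 were at 0 in every library. The part of these marker differences in the values below was not tested. In bulk samples fewer cells of a type and less RNA per cell cannot be told apart.

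Proteasome subunit transcripts stood slightly higher in most miR652-KD libraries, and none of the 34 genes passed the test. Of the 34, all of which passed the filter on low counts, 30 had a log2 difference above 0, against 49.5% of all 14360 genes tested. Their median log2 difference was 0.14, and that of all genes tested was -0.0043. The differences ran from -0.38 for Psmd1 to 0.27 for Psmc3. With edgeR's quasi-likelihood test and Benjamini-Hochberg adjustment over all genes, 0 of 34 had an adjusted p below 0.05, against 0.0418% of genes tested (0.0279% higher and 0.0139% lower in miR652-KD). The smallest adjusted p among the members was 0.801 with edgeR. At an unadjusted p below 0.05 there was 1 member, Psma7, higher in miR652-KD, against 5.99% of genes tested in either direction and 2.9% in that direction. DESeq2 and limma-voom also called 0 of 34, with 0.425% and 0.0279% of all genes called, and each had 1 member at an unadjusted p below 0.05. The 4 miR652-KD values lay entirely above the 4 NTC values in 3 members, 8.82% of them, against 2.35% of all genes tested. No member had its miR652-KD values entirely below those of NTC, against 2.15% of all genes, and 4.5% of all genes had no overlap in either direction.

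**Figure D1:**
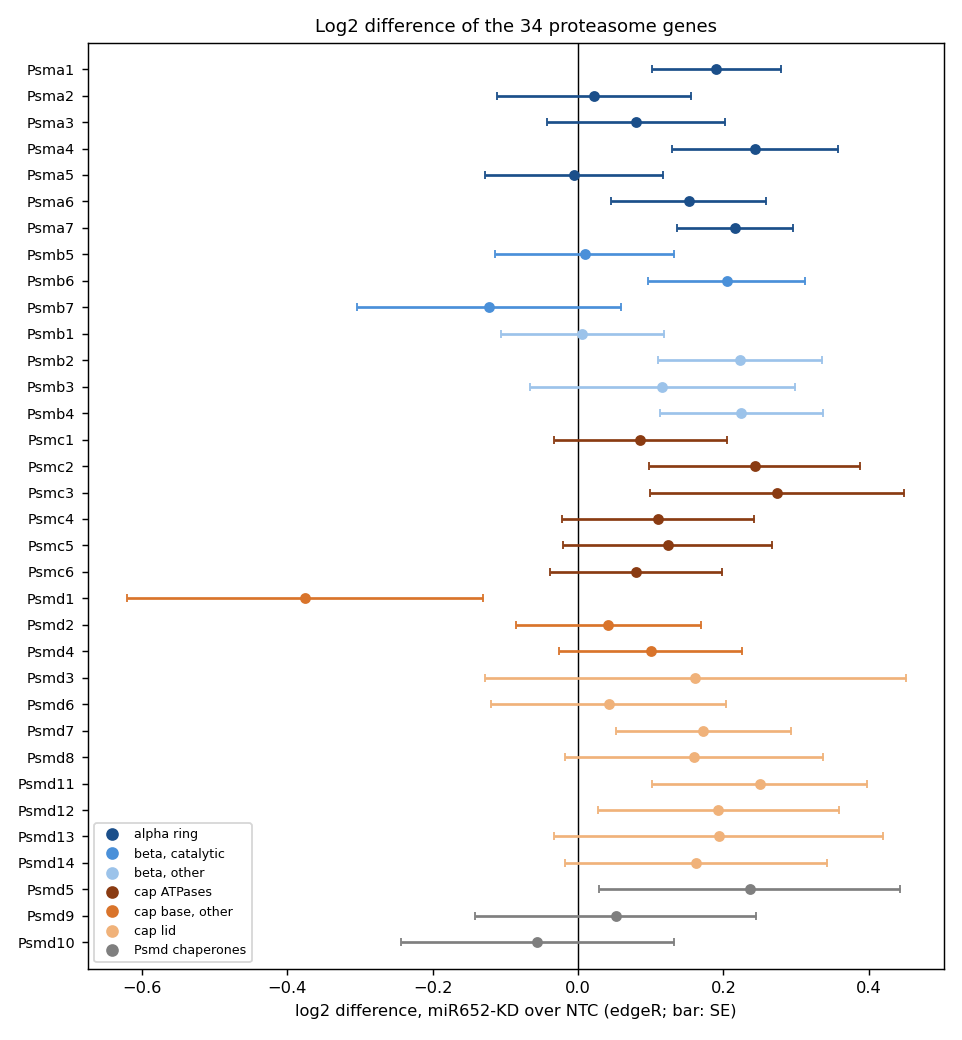
Log2 difference of each proteasome gene, miR652-KD over NTC, with its standard error from edgeR, 1 row per gene and coloured by the subunit's place in the particle. Of the 34 points 30 lie to the right of 0, and Psmd1 lies furthest to the left at -0.38.

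Summed over the 34 genes, proteasome transcripts took 7263, 7912, 7745 and 8402.5 CPM in miR652-KD replicates 1 to 4, against 6446, 7454, 7453 and 7234 CPM in NTC replicates 1 to 4. The groups overlapped, since miR652-KD replicate 1 lay below NTC replicates 2 and 3. The sum averaged 7830.4 ± 470.4 CPM in miR652-KD and 7147 ± 479 CPM in NTC (SD, n = 4 each), a ratio of 1.10. The miR652-KD replicate 4 library held the highest value of 17 of the 34 genes, and NTC replicate 1 the lowest value of 17. NTC replicate 1 also had 16.9% of its reads outside annotated genes, against 9.69% to 11.3% in the other 7 libraries, and the part of this in its low values was not tested. Without NTC replicate 1 the median log2 difference was 0.07 and 25 of 34 genes were above 0. Without miR652-KD replicate 4 the median was 0.08 and 27 were above 0. Erythroid markers summed to 2380.5 CPM in that library, against 56.3 to 213 CPM in the other miR652-KD libraries. The part of this in its high values was not tested. Granulocyte and monocyte markers were highest in NTC replicates 3 and 4, at 9542 and 14597 CPM, and without these libraries the median was 0.16 and 27 genes were above 0.

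**Figure D2:**
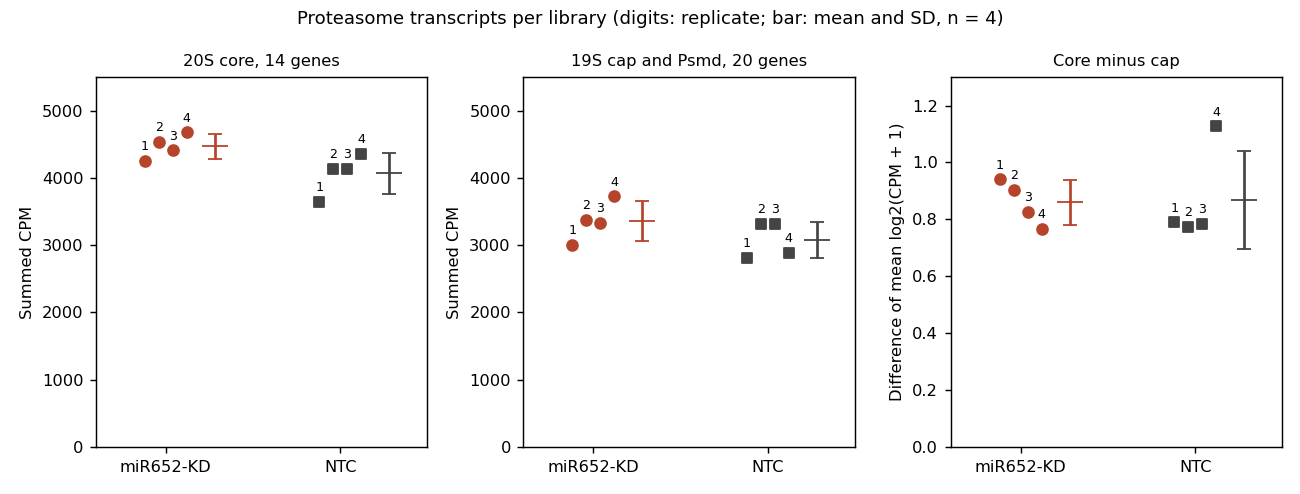
Summed CPM of the 14 core genes (left), summed CPM of the 20 cap and Psmd genes (middle) and the core mean minus the cap mean on the log2(CPM + 1) scale (right), 1 point per library numbered by replicate, with the group mean and SD beside the points. The groups overlap in each panel, and NTC replicate 4 stands apart on the right at 1.13.

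The balance between core and cap transcripts did not separate the groups. The 14 core genes summed to 4252, 4535.0, 4410.4 and 4677 CPM in miR652-KD replicates 1 to 4, against 3639, 4139, 4139 and 4353 CPM in NTC replicates 1 to 4. For the 20 cap and Psmd genes the sums were 3010.3, 3377, 3334 and 3725 CPM in miR652-KD, against 2807, 3314.5, 3314 and 2881 CPM in NTC. The mean log2(CPM + 1) of the core genes exceeded that of the cap genes by 0.94, 0.90, 0.83 and 0.77 in miR652-KD, against 0.79, 0.77, 0.78 and 1.13 in NTC. NTC replicate 4 thus had the widest gap of all 8 libraries, and the other NTC libraries lay within 0.77 to 0.79. The gap averaged 0.86 ± 0.08 in miR652-KD and 0.87 ± 0.17 in NTC (SD, n = 4 each), a difference of -0.01. This difference was smaller than the spread within either group. Without NTC replicate 4 it was 0.08.

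**Figure D3:**
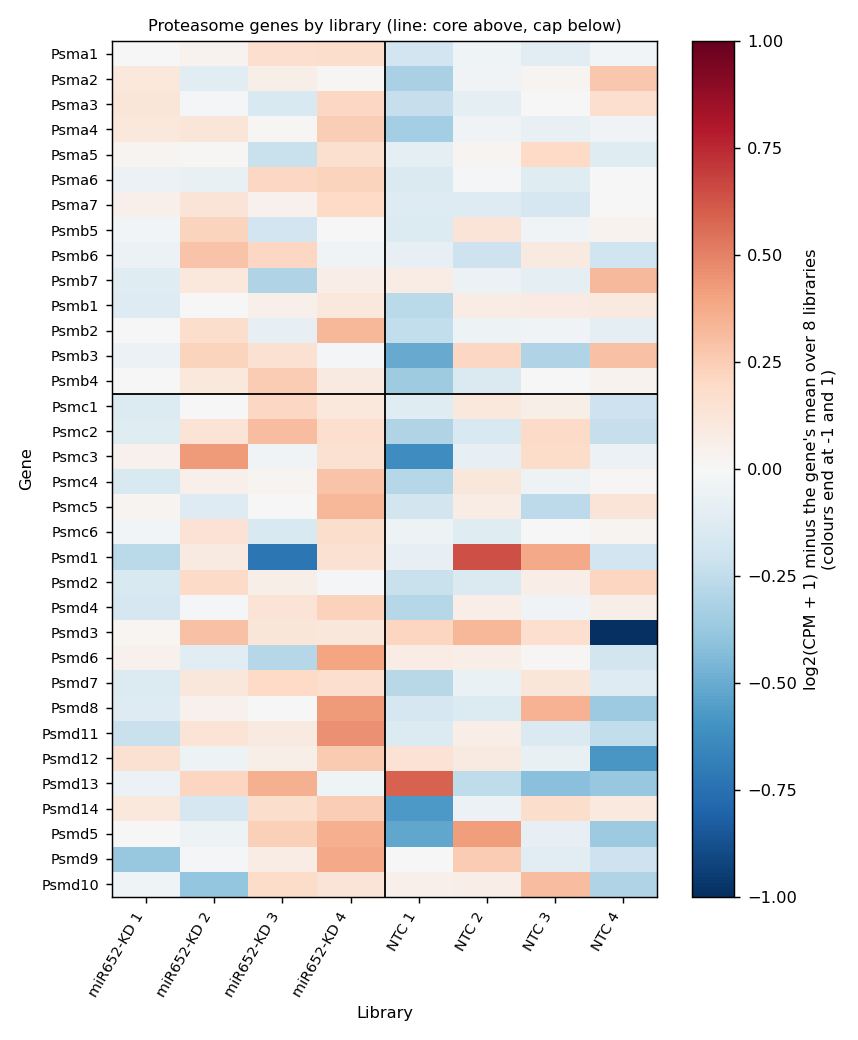
Each of the 34 genes (rows, core above the line and cap below) in each of the 8 libraries (columns), coloured by its log2(CPM + 1) minus the gene's mean over the libraries. The column of NTC replicate 1 is mostly blue and that of miR652-KD replicate 4 mostly red. The darkest cell is Psmd3 in NTC replicate 4.

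The 7 alpha ring genes encode the outer rings that gate the core, and 6 of them had a log2 difference above 0, with a median of 0.15. The 3 members without overlap between groups, Psma7, Psma1 and Psma4, were all of this ring, and none passed the test. Psma7 (ENSMUSG00000027566.15, chromosome 2, 180036374 to 180042433, minus strand, mm10) had 564, 593, 561 and 625 CPM in miR652-KD, against 497, 498, 485 and 543 CPM in NTC. Its highest NTC library thus lay just under its lowest miR652-KD library. It averaged 586 ± 30.0 CPM in miR652-KD and 506 ± 25.5 CPM in NTC (SD, n = 4 each), a log2 difference of 0.22 (SE 0.08, adjusted p = 0.801 with edgeR). Psma1 (ENSMUSG00000030751.18, chromosome 7, 114264606 to 114276118, minus strand) had 357, 367, 402 and 404 CPM in miR652-KD, against 314, 348, 331 and 351 CPM in NTC. All 4 miR652-KD values lay above all 4 NTC values, and its log2 difference was 0.19 (SE 0.09, adjusted p = 0.846 with edgeR). Psma4 (ENSMUSG00000032301.13, chromosome 9, 54950790 to 54958030, plus strand) had 226, 228, 211 and 249 CPM in miR652-KD, against 165, 205, 199 and 205 CPM in NTC. Here NTC replicate 1 was lowest and the other NTC values came close to the lowest miR652-KD value, with a log2 difference of 0.24 (SE 0.11, adjusted p = 0.848 with edgeR).

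Promoter sequence was looked at for what the subunit genes share beyond their names. RefSeq gene starts on GRCm38.p6, the build also called mm10, gave upstream windows of 250 bases for 28 of the 34 genes, 30 windows in all. Psmc3, Psmb1, Psmd3, Psmd7, Psmb7 and Psmb2 were not matched. The windows were searched on both strands for CCAAT, the box bound by NF-Y, for GGGCGG, the GC box bound by SP1, and for TGACNNNGC, the core of the antioxidant response element bound by NRF1 and NRF2 with their partner proteins. In the sequences printed here, matches to different patterns share no bases. GGGCGG was found in 17 of 30 windows (56.7%), against 32.7% of all 32851 windows in the RefSeq table. CCAAT was found in 11 windows (36.7%), against 33.8% of all. TGACNNNGC was found in 5 windows (16.7%), those of Psmb5, Psmb6, Psmc6, Psmd12 and Psmd9, against 10.2% of all. The median GC content was 54.6% in the members' windows and 52.4% in all windows. The windows compared against were not limited to expressed genes, so a higher share may not be particular to the subunit genes. A match in these letters is a description and not evidence of binding.

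The upstream windows of the 3 alpha ring genes without overlap are shown 5′ to 3′ on the strand of the gene, with matches to the patterns in capitals, and end before the first annotated base of the gene. For this the windows of Psma1 and Psma4 were shortened to 248 and 181 bases, and the match counts given here are for the printed sequences, while the shares above rest on full windows. They lie at chr2:180042465-180042714 (Psma7, minus strand), chr7:114276119-114276366 (Psma1, minus strand) and chr9:54950609-54950789 (Psma4, plus strand). GGGCGG in either orientation matched 5 times in Psma7, 2 times in Psma1 and 4 times in Psma4, with overlapping matches counted. CCAAT matched 1 time in Psma7, 2 times in Psma1 and 0 times in Psma4, and TGACNNNGC matched in none of these sequences.
Psma7: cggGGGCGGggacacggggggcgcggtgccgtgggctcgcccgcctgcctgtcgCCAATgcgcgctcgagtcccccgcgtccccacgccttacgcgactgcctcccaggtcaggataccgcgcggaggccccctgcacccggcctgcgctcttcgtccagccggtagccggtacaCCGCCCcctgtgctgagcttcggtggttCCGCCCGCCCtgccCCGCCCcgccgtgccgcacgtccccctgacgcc
Psma1: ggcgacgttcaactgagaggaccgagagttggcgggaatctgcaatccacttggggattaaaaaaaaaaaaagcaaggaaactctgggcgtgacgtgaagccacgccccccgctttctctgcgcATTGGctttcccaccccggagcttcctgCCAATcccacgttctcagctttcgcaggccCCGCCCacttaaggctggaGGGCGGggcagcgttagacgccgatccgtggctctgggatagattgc
Psma4: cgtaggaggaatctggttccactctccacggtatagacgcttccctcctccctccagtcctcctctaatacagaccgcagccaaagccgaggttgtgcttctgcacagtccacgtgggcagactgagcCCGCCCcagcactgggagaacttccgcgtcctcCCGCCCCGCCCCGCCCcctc

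The other alpha ring genes overlapped between groups. Psma6, with the highest level in the ring per kb of merged exons (Psma7 was highest with either transcript length), had 239, 237, 288 and 291 CPM in miR652-KD, against 226, 246, 229 and 249 CPM in NTC. Replicates 3 and 4 of miR652-KD were the highest, the other miR652-KD libraries lay among those of NTC, and the log2 difference was 0.15 (SE 0.11). Psma3, Psma2 and Psma5 had log2 differences of 0.08, 0.02 and -0.01. Counts of Psma3 and Psma5 may be uncertain, and whether reads were exchanged with pseudogene copies was not tested. Such copies were annotated pseudogenes that matched the coding sequence at 90% identity or more over at least 200 bases. Over all libraries they held counts equal to 37.5% of those of Psma3 and 16.0% of those of Psma5. For the other members that share was at most 6.30% (Psmb3).

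The catalytic beta genes encode the caspase-like (Psmb6), trypsin-like (Psmb7) and chymotrypsin-like (Psmb5) proteolytic sites, and they differed more from each other than between groups. Psmb6 had 397, 505, 479 and 405 CPM in miR652-KD, against 392, 359, 442 and 362 CPM in NTC. Its 2 highest values, in miR652-KD replicates 2 and 3, stood above every NTC value, while NTC replicate 3 exceeded miR652-KD replicates 1 and 4. The log2 difference was 0.20 (SE 0.11, adjusted p = 0.884 with edgeR). Psmb5 averaged 174 ± 21.1 CPM in miR652-KD and 173 ± 13.4 CPM in NTC (SD, n = 4 each), a log2 difference of 0.01. Psmb7 (ENSMUSG00000026750.6, chromosome 2, 38588036 to 38644087, minus strand) had 43.9, 51.7, 38.8 and 50.2 CPM in miR652-KD, against 50.5, 45.9, 45.0 and 60.3 CPM in NTC. Values of the groups were mixed, and the log2 difference was -0.12 (SE 0.18, adjusted p = 0.999 with edgeR).

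Per kb of merged exons, Psmb7 stood far below its catalytic partners. Its level over all 8 libraries was 14.1 ± 1.88 CPM per kb, against 193 ± 18.3 for Psmb5 and 223 ± 28.4 for Psmb6 (SD, n = 8 each). Psmb5 was thus 13.7 times and Psmb6 15.8 times the level of Psmb7. With the length of the coding transcript the ratios were 4.63 and 12.6, and Psmb7 remained the lowest of the 3 genes. Exons of the gene Nek6 on the opposite strand cover 11.8% of the merged exons of Psmb7, and reads that fall on 2 genes are kept out of gene counts by HTSeq where strand is not used. The strand setting is not given in the sources used here. Psmb5 shares 12.1% of its merged exon bases with Mir686, and Psmb6 shares 0%. The part of such overlaps in these levels was not tested. The sequence before Psmb6 is shown because Psmb6 is the catalytic gene of smallest p and, like Psmb5, is among the 5 that hold the response element core. It lies at chr11:70525107-70525356 (plus strand, GRCm38.p6), with 1 match of TGACNNNGC at its end and 1 of GGGCGG.
Psmb6: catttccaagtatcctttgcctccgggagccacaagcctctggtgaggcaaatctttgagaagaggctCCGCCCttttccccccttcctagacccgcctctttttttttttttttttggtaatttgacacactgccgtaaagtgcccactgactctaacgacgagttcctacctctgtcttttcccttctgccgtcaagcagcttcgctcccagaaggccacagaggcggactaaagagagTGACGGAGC

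The beta genes without a proteolytic site, Psmb1 to Psmb4, all had log2 differences above 0, with a median of 0.17. Psmb2, the gene of highest level per kb of merged exons among the 34, had 394, 444, 371 and 494 CPM in miR652-KD, against 331, 380, 383 and 369 CPM in NTC. Only miR652-KD replicate 3 fell within the NTC range, and the log2 difference was 0.22 (SE 0.11, adjusted p = 0.869 with edgeR), and it was 0.14 without miR652-KD replicate 4. Psmb4 had 321, 344, 383 and 342 CPM in miR652-KD, against 250.3, 290.1, 321 and 329 CPM in NTC. The overlap came from NTC replicate 4, which lay above the lowest miR652-KD value, with a log2 difference of 0.22 (SE 0.11, adjusted p = 0.864 with edgeR), and it was 0.14 without NTC replicate 1. Psmb3 and Psmb1 had log2 differences of 0.12 and 0.01, and NTC values of Psmb3 spread from 219 to 383 CPM.

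The 6 ATPase genes of the cap, Psmc1 to Psmc6, encode the ring that unfolds substrates, and all had log2 differences above 0, from 0.08 to 0.27. Psmc3, highest of them per length, had 319, 416, 302 and 344 CPM in miR652-KD, against 201, 292, 351 and 298 CPM in NTC. NTC replicate 1 was lowest, while NTC replicate 3 lay above all miR652-KD values except replicate 2. The log2 difference was 0.27 (SE 0.18, adjusted p = 0.934 with edgeR), and it was 0.13 without NTC replicate 1. Psmc2, the ATPase gene of smallest p, had 128, 153, 173 and 157 CPM in miR652-KD, against 113, 125, 160 and 118 CPM in NTC. Again NTC replicate 3 lay among the miR652-KD values, and the log2 difference was 0.24 (SE 0.15, adjusted p = 0.926 with edgeR). Psmc5, Psmc4, Psmc1 and Psmc6 had log2 differences of 0.12, 0.11, 0.09 and 0.08.

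Psmd1, Psmd2 and Psmd4 encode the rest of the cap base, the scaffold proteins and the ubiquitin receptor Psmd4. Psmd1 (ENSMUSG00000026229.17, chromosome 1, 86064387 to 86139151, plus strand) had 108, 139, 78.5 and 145 CPM in miR652-KD, against 123, 204, 170 and 114 CPM in NTC. It was the gene furthest below 0, with the highest value in NTC replicate 2 and the lowest in miR652-KD replicate 3, and the groups overlapped. The log2 difference was -0.38 (SE 0.25, adjusted p = 0.934 with edgeR). Leaving out miR652-KD replicate 3 gave -0.22, and leaving out NTC replicate 2 gave -0.18. Psmd4, highest per length in this group, had 217, 243, 270 and 288 CPM in miR652-KD, against 201, 256, 239 and 254 CPM in NTC. Its groups overlapped over most of their range, with a log2 difference of 0.10 (SE 0.13), and Psmd2 had one of 0.04 (SE 0.13).

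All 8 lid genes had log2 differences above 0, from 0.04 for Psmd6 to 0.25 for Psmd11, with a median of 0.17. The lid carries the deubiquitinase Psmd14, which cuts the ubiquitin chain off the substrate. Psmd11, a scaffold subunit of the lid, had 165, 212, 205 and 264 CPM in miR652-KD, against 175, 202, 174 and 162 CPM in NTC. Apart from replicate 1, the miR652-KD values lay above those of NTC, and the log2 difference was 0.25 (SE 0.15, adjusted p = 0.921 with edgeR), and it was 0.12 without miR652-KD replicate 4. Psmd7, the partner of Psmd14, had 225, 267, 284 and 278 CPM in miR652-KD, against 204, 236, 270 and 227 CPM in NTC. The lowest miR652-KD value lay below 3 of the 4 NTC values, and the log2 difference was 0.17 (SE 0.12). Psmd14 itself averaged 133 ± 16.2 CPM in miR652-KD and 119 ± 25.3 CPM in NTC (SD, n = 4 each), a log2 difference of 0.16 (SE 0.18).

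In a pair of lid genes 1 NTC library lay far from the other NTC libraries. Psmd3 had 116, 140.3, 124 and 123 CPM in miR652-KD, against 132, 144, 128 and 46.9 CPM in NTC. Its log2 difference of 0.16 (SE 0.29) was -0.09 without NTC replicate 4. Psmd13 had 88.6, 107, 118 and 89.6 CPM in miR652-KD, against 139, 77.1, 68.6 and 70.5 CPM in NTC, and its highest value of all libraries was in NTC replicate 1, the library that was lowest for 17 of the 34 members. Psmd13 had a log2 difference of 0.19 (SE 0.23), which was 0.47 without NTC replicate 1. The exons of Psmd13 share 10.1% of their bases with Sirt3. Both genes were singled out after their values were seen. Of the remaining lid genes, Psmd12 had a log2 difference of 0.19 and Psmd8 one of 0.16.

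Psmd5, Psmd9 and Psmd10 are matched by the name rule but encode chaperones that help to assemble the cap base and leave before the particle is complete. Psmd5 had 157, 151, 184 and 200.02 CPM in miR652-KD, against 109, 209, 148 and 121 CPM in NTC. NTC replicate 2 was the highest of all 8 libraries, the other NTC values lay below every miR652-KD value, and the log2 difference was 0.24 (SE 0.21, adjusted p = 0.990 with edgeR). It was 0.47 without NTC replicate 2 and 0.11 without NTC replicate 1. Psmd10, also known as gankyrin, had 69.4, 54.4, 81.5 and 78.4 CPM in miR652-KD, against 74.0, 74.9, 88.7 and 57.9 CPM in NTC. Its values were mixed between groups, with a log2 difference of -0.06 (SE 0.19), and Psmd9 had one of 0.05 (SE 0.19).

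Levels between subunits were compared per kb of merged exons, averaged over the 8 libraries. Core genes had a median of 151 CPM per kb and cap and Psmd genes one of 46.2 CPM per kb, a ratio of 3.28. With the longest annotated transcript as the length the ratio was 3.04, and with the coding transcript it was 3.12. Per kb of merged exons, levels ran from 14.1 (Psmb7) to 329 CPM (Psmb2) within the core and from 10.0 (Psmd9) to 121 CPM (Psmc3) within the cap series. The exons of Psmd9 share 25.5% of their bases with Gm26745, and the part of this in its low level was not tested. The order depended on the length used, since per kb of coding transcript Psma7 was first at 597 CPM, Psmb6 second at 523 CPM and Psmb2 next at 461 CPM. The ratio of core to cap median per library was 3.14, 4.30, 3.00 and 2.95 in miR652-KD, against 2.69, 3.42, 2.85 and 4.30 in NTC. No separation by group was seen in this ratio.

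**Figure D4:**
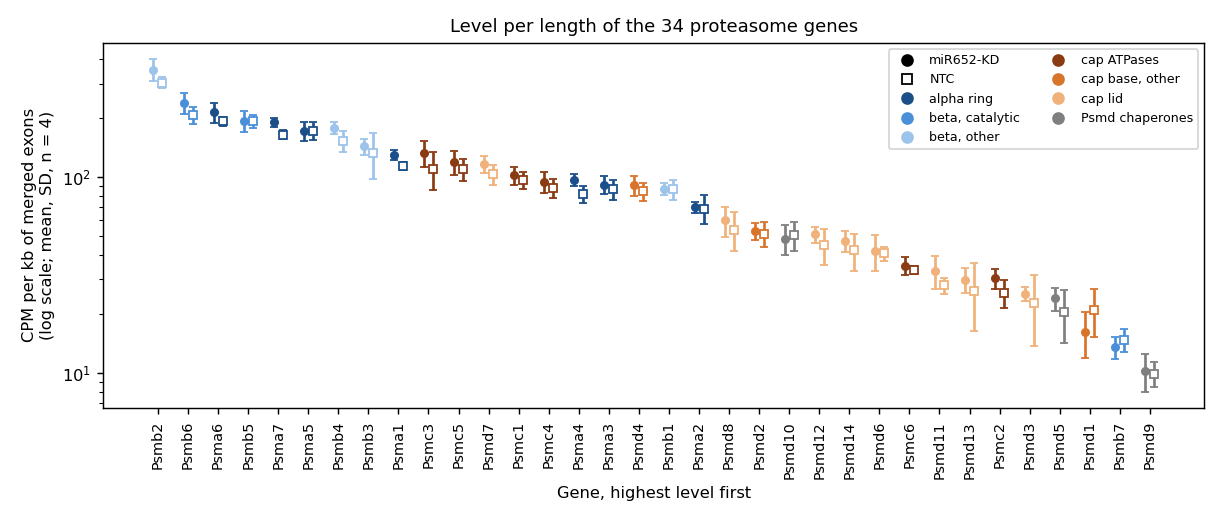
CPM per kb of merged exons of each of the 34 genes on a log axis, highest level first, filled circles for miR652-KD and open squares for NTC, with the mean and SD of 4 libraries and colours for the subunit's place. Psmb2 is highest, Psmb7 and Psmd9 are lowest, and the 2 groups lie close together for most genes.

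Subunits varied less between libraries than the median gene tested. The edgeR biological coefficient of variation had a median of 16.6% over the 34 genes, 15.7% over the core genes and 18.5% over the cap and Psmd genes, against 37.1% over all genes tested. Genes were not matched for expression level in this comparison. The median was 17.4% over the HSC markers, 19.8% over 37 other pathway genes described below and 125% over the erythroid markers. Within groups the coefficient of variation of CPM ran from 5.12% (Psma7) to 26.2% (Psmd1) in miR652-KD and from 4.61% (Psmc6) to 39.4% (Psmd3) in NTC. Member counts per library ran from 643 (Psmb7, NTC replicate 2) to 11164 (Psma7, miR652-KD replicate 3), for which counting error alone is 3.94% and 0.946%. The genes lie on 15 chromosomes, 6 of them on chromosome 11 and 5 on chromosome 2, and the closest pair, Psmb4 and Psmd4, lies 145732 bases apart on chromosome 3.

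Other genes of the pathway were taken from 7 further lists with 39 genes, of which 37 were tested, 22 had a log2 difference above 0, against 49.5% of all genes tested. With edgeR 0 of them passed, against 0.0418% of all genes, and 4 had an unadjusted p below 0.05, against 5.99% of all genes. The groups did not overlap in 2 of the 37, Psmb8 and Psmg4, both higher in miR652-KD. Of all genes tested 2.35% had no overlap in that direction and 4.5% in either. The immunoproteasome genes Psmb8, Psmb9 and Psmb10 encode subunits that replace Psmb5, Psmb6 and Psmb7 in blood and interferon-treated cells. Psmb8 had 447, 477, 480.0 and 422 CPM in miR652-KD, against 385, 345, 414 and 346 CPM in NTC. These groups did not overlap, with a log2 difference of 0.30 (SE 0.09, adjusted p = 0.764 with edgeR). Psmb9 and Psmb10 overlapped, with log2 differences of 0.28 and 0.22. Per kb of merged exons, the ratio of Psmb10 to Psmb7 was 11.3, 11.9, 13.2 and 11.5 in miR652-KD, against 8.06, 10.3, 11.8 and 7.89 in NTC. Psmb10 therefore stood above Psmb7 in every library, also with the longest transcript (8.54 to 14.3). This ratio was not taken with the coding transcript, with which Psmb7 rose from 14.1 to 41.6 CPM per kb. Reads lost to the overlap of Psmb7 with Nek6 would also affect it. The ratio of Psmb9 to Psmb6 was 0.264 to 0.349 over all libraries, so Psmb6 stood above Psmb9. For Psmb8 to Psmb5 the ratio was 0.485 to 0.845 with merged exons and 0.860 to 1.499 with the longest transcript, so their order depended on the length used. The thymus subunit gene Psmb11 had at most 0.067 CPM in any library and was not tested.

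Among activators and the inhibitor, 4 of 5 genes were above 0. Psme1, a subunit of the PA28 activator, had 436, 456, 475 and 495 CPM in miR652-KD, against 399, 437, 405 and 395 CPM in NTC, a log2 difference of 0.19 (SE 0.08, adjusted p = 0.833 with edgeR). Its groups overlapped by 1 library on each side. The assembly chaperone gene Psmg4 had 62.2, 57.1, 64.4 and 62.4 CPM in miR652-KD, against 42.0, 52.9, 37.6 and 38.7 CPM in NTC. All miR652-KD values lay above all NTC values, and its log2 difference of 0.52 (SE 0.17, adjusted p = 0.779 with edgeR) was the largest of the further lists. Of 5 assembly genes tested 4 were above 0, with Psmg1 at -0.24. The cap subunit gene Sem1 had a log2 difference of 0.13, the proteasome-bound thioredoxin gene Txnl1 one of 0.33 and the ubiquitin-activating enzyme gene Uba1 one of 0.22, with edgeR adjusted p of 0.995, 0.844 and 0.962. Of 6 proteasome-bound genes 3 were above 0, and of 11 ubiquitin, shuttle and p97 genes 6 were.

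A further list held NRF1 (Nfe2l1), NRF2 (Nfe2l2) and the enzymes that activate NRF1, the protease gene Ddi2 and the deglycosylase gene Ngly1. All 4 had log2 differences below 0, against 7247 of 14360 genes tested, with a median of -0.19. Nfe2l1 had 58.4, 40.7, 56.7 and 57.2 CPM in miR652-KD, against 53.6, 56.9, 66.0 and 65.8 CPM in NTC, a log2 difference of -0.18 (SE 0.18, adjusted p = 0.995 with edgeR). Ddi2 had 55.5, 33.8, 45.7 and 32.1 CPM in miR652-KD, against 69.7, 49.1, 49.0 and 59.0 CPM in NTC, a log2 difference of -0.43 (SE 0.23, adjusted p = 0.880 with edgeR). Both genes overlapped between groups. Without NTC replicates 3 and 4 together, the log2 differences were -0.05 for Nfe2l1 and -0.49 for Ddi2.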

How the data were processed

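The authors deposited 1 table of unnormalized, whole-number counts per gene for each of 8 libraries. HISAT2 2.1.0, HTSeq 0.11.2, DESeq2 and the build mm10 are named, per the submitters' processing notes. Neither annotation release nor strand mode is given in the sources used here. The 5 HTSeq summary lines entered neither library size nor test. Reads outside genes made up 9.69% to 16.9% and ambiguous reads 8.94% to 12.3% of each file. Of 55487 gene identifiers, 55394 were found without version in GENCODE M21, the source of symbols, coordinates and lengths.

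CPM were computed over the counts in genes. All genes were fitted with edgeR 4.0.16 (R 4.3.3): filterByExpr (minimum count 10, minimum total 15), TMM scaling, robust quasi-likelihood fits and Benjamini-Hochberg adjustment over 14360 genes, called below 0.05. Each SE was obtained from the log2 difference and the quasi-likelihood F statistic. Alternatives were RLE and no scaling, DESeq2 1.42.0, limma-voom (limma 3.58.1), other filters, a replicate block and left-out libraries. Pseudogene copies were annotated pseudogenes matching a coding sequence at 90% identity over 200 bases (blastn). Smart-seq2 has no molecular identifiers, so counting errors cover counting only.

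The members and gene lists were chosen with earlier results of these data known. Values per library are given for the gene of smallest p and of highest level per kb of merged exons in each of 7 subunit classes and for genes past the threshold. Among other pathway genes, the gene of smallest p in each list, Psmb8, Psmb9, Psmb10 and Nfe2l1 are named. Further genes were named after their values were seen. Paaf1 was not matched.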

Additional observations from a re-analysis of the deposited data

Results flagged for a closer look

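A library stood far from the other 3 of its group in 7 of 96 sets of 4 values examined, and chance alone flags about 1 set in 20. Psma4 was at 165 CPM in NTC replicate 1, against 199 to 205 CPM in the other NTC libraries. Psmb1 was at 328.5 CPM in the same library, against 418 to 424 CPM. Psmd13 was at 139 CPM there, against 68.6 to 77.1 CPM, so it deviated upward where the other 2 genes deviated downward. Psmd3 was at 46.9 CPM in NTC replicate 4, against 128 to 144 CPM. The core minus cap difference of mean log2(CPM + 1) was 1.13 in NTC replicate 4, against 0.77 to 0.79. Nfe2l1 was at 40.7 CPM in miR652-KD replicate 2, against 56.7 to 58.4 CPM in the other miR652-KD libraries. Uba1 was at 379 CPM in NTC replicate 2, against 238 to 260 CPM in the other NTC libraries.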

How the results depend on the processing

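Under every setting run, 0 of 34 proteasome genes passed, with a smallest adjusted p of 0.507. The number of all genes past the threshold was 6 with edgeR, 61 with DESeq2, 0 with the replicate block and 0 without NTC replicates 3 and 4 together, and 0 to 0 when single libraries were left out. Same-numbered libraries did not deviate together over all genes tested (correlations of -0.05 to -0.01). The labels state no pairing, and this check cannot exclude one. The block gave a members' median of 0.15. That median was 0.13 to 0.16 under other settings and 0.07 to 0.18 when single libraries were left out. The sign of some members' log2 differences turned, none of them called, and the cause was not tested. With limma-voom Psmb1 was -0.013. Psma5 was 0.0027 with no filter and 0.0036 with at least 5 CPM in 4 libraries. Without NTC replicates 3 and 4 together Psma5 was 0.040, Psmd3 -0.13, Psmd6 -0.027, Psmd13 -0.082 and Psmd9 -0.086. Leaving out single libraries, Psma2 ran from -0.082 to 0.13, Psmb5 from -0.063 to 0.076, Psmb1 from -0.085 to 0.050, Psmb3 from -0.021 to 0.25, Psmd2 from -0.033 to 0.13, Psma5 from -0.067 to 0.068, Psmd10 from -0.15 to 0.060, Psmd3 from -0.089 to 0.32, Psmd6 from -0.11 to 0.14 and Psmd9 from -0.087 to 0.17. The summed CPM difference of 684 ran from 450.2 to 873 CPM without single libraries and was 706 CPM with pseudogene copies added, an alternative chosen after seeing the data, as was the coding transcript length. The core minus cap difference ran from -0.04 to 0.08 and so had no stable sign.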
